A study of Mus musculus with 3 samples.

Results

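The genes described here are 8 costimulatory and checkpoint molecules, Cd80, Cd86, Icosl, Cd40, Cd83, Cd274, Pdcd1lg2, and Havcr2, in bone marrow-derived macrophages (BMDMs). They were found by name among the probes of the array that were not controls. The 8 genes had 11 probes, and the arrays measured 55659 probes with 34813 gene names in all. Gene expression was measured on 3 one-color Agilent arrays, with 1 array per condition. Gene models of mm9, the build of the probe positions, were not used here, so that the exon or untranslated region under a probe is not given. BMDMs were macrophages grown from the bone marrow of C57BL/6J mice in medium with M-CSF, which came from L929 cells carrying a human M-CSF plasmid. They were stimulated for 20 h with CpG, a DNA ligand of TLR9, with IFN-γ and αIL-10R, a blocking antibody against the IL-10 receptor (labelled IFN-g+IL-10RB, here IFN-γ + blocker), or with the 3 agents together (labelled triple, here Triple). The sources used here give neither the number of animals behind each culture nor an array of unstimulated cells, so that every value below compares stimulated BMDMs with each other.

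T cells respond fully to an antigen only when the presenting cell also provides costimulation. CD80 and CD86, the B7 ligands, deliver it through CD28 and are also bound by the inhibitory receptor CTLA-4, while ICOSL engages ICOS on T cells that are already activated. CD40 works in the opposite direction, receiving the CD40 ligand of T cells and signalling into the macrophage. The ligands PD-L1 (Cd274) and PD-L2 (Pdcd1lg2) restrain T cells through PD-1, and TIM-3 (Havcr2) is an inhibitory receptor of T cells and myeloid cells.

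All signals below are processed signals of the scanner software, in arbitrary units of intensity. Folds were calculated after scaling to an upper percentile (the 75th) of the detected probes, which was 4580 in CpG, 4513 in IFN-γ + blocker, and 4401 in Triple. Over all probes with replicate spots, dim ones included, the technical SD of a log2 fold was 0.13, or 0.26 at signals under 200. At signals of 200 or more the SD within an array was 0.060 in CpG, 0.056 in IFN-γ + blocker, and 0.063 in Triple. The value of 0.13 is thus wide for bright probes, and none of these includes differences between cultures. With 1 array per condition, there is no replicate check and no test of any difference. A gene was called higher or lower if it passed 2-fold and was well above background on the brighter array. The labelled cell type was checked first. All 7 macrophage markers were well above background on all 3 arrays, with a summed signal of 735426 for CpG, 615493 for IFN-γ + blocker, and 574216 for Triple. Single macrophage markers differed more than the sum, with Cd14 16.9-fold higher and Cd68 2.24-fold lower in Triple than in IFN-γ + blocker. Of the lists of other cell types, 0 of 3 NK cell genes were detected, and Cd3d, Cd3g, Cd8a, Ms4a1, Pax5, Flt3, and Cd209a were not well above background on any array. On at least 1 array, 2 of 5 measured T cell genes, 2 of 5 B cell genes, 3 of 5 neutrophil genes, and 4 of 4 fibroblast genes were detected, with summed signals per array of 974 to 1056, 184 to 885, 3489 to 9353, and 336 to 817. Among these, Ly6g measured 555 in CpG, 7699 in IFN-γ + blocker, and 2658 in Triple. The other neutrophil genes did not follow it. Elane measured 2839, 1615, and 1539, Camp was well above background in CpG and Triple only, and Mpo and Ltf on no array. Cd79b measured 801, 182, and 108, and Dcn was at least 13.2-fold higher in Triple than in IFN-γ + blocker. Of 6 dendritic cell markers, 2 were well above background in CpG, 3 in IFN-γ + blocker, and 4 in Triple, with summed signals of 2314, 1546, and 4543. Ccr7, the homing receptor of mature dendritic cells, measured 319, 225, and 2892 in the same order, which was 13.2-fold higher in Triple than in IFN-γ + blocker. Zbtb46 and Xcr1 were also called higher there, at signals of 133 and 60.7 in Triple. Itgax, the brightest of these markers in CpG and IFN-γ + blocker, measured 1945, 1246, and 1438 and was not called. Whether other cell types contributed to the values below was not tested, and in whole cultures more cells of a type and more RNA per cell cannot be told apart.

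Of the 8 members, each well above background on all arrays, 3 were called higher in Triple than in IFN-γ + blocker, against 3.56% of all genes, and 2 were called lower, against 5.01%. Here and below, all genes are the 34813 gene names, detected or not, and undetected genes could not be called. On at least 1 of these 2 arrays 18765 genes were well above background, with 1238 called higher and 1745 lower. The shares among detected genes are therefore larger than those given. The members that were higher were Cd40, Cd83, and Cd274. Cd80 and Havcr2 were lower, Cd80 by its brighter probe alone. Compared with CpG, 6 members were higher in Triple (4.12% of all genes) and 1, Cd80, was lower (4.58%). None of the members was higher in CpG than in IFN-γ + blocker (2.75% of all genes), and 6 were lower (3.19%), Pdcd1lg2 by only 1 of its probes. The median log2 fold of the members was 0.50 for Triple over IFN-γ + blocker, 2.56 for Triple over CpG, and −1.60 for CpG over IFN-γ + blocker. Over all genes well above background the medians were −0.04, −0.05, and 0.0019. The 3 comparisons share arrays, so that their folds are not independent of each other.

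**Figure D1:**
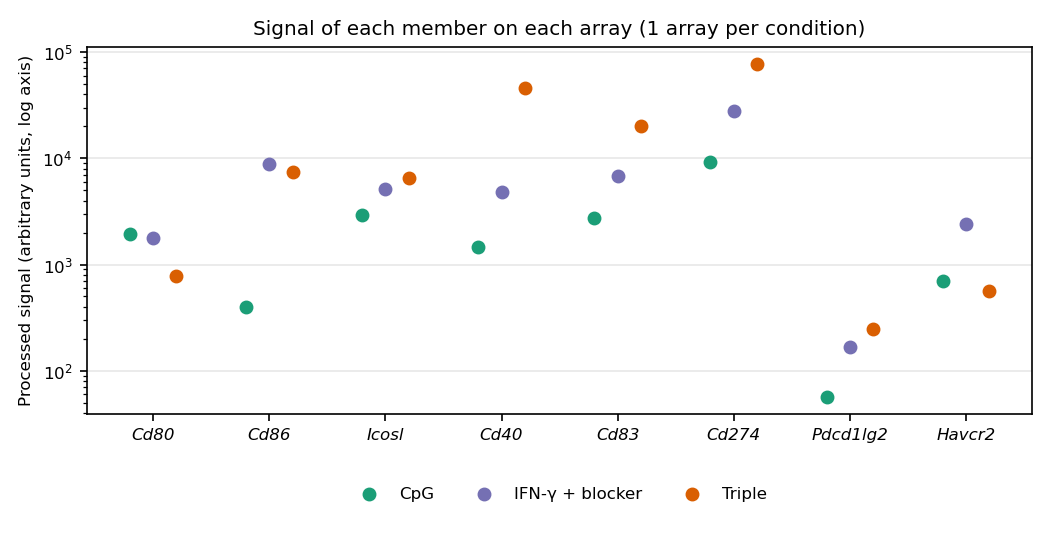
Processed signal (arbitrary units, log axis) of the probe that represents each member; each point is the single array of a condition. Triple is the highest of the 3 arrays for Icosl, Cd40, Cd83, Cd274, and Pdcd1lg2 and the lowest for Cd80 and Havcr2, and CpG is the lowest for Cd86 at 401.

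Cd40, Cd83, and Cd274 were higher in Triple than in each of the other conditions, which 2.09% of all genes were. Cd40, the receptor through which T cells activate macrophages, had a signal of 1451 in CpG, 4777 in IFN-γ + blocker, and 45468 in Triple. Its probe was designed on NM_011611 (chr2:164897085-164897144, mm9). The signal in Triple was thus 9.76-fold higher than in IFN-γ + blocker (log2 fold 3.29) and 32.6-fold higher than in CpG (5.03). Of the genes well above background on at least 1 of the arrays compared, 0.719% had a higher fold over IFN-γ + blocker than Cd40, and 0.268% a higher fold over CpG. Triple reached 7.51 times the sum of the signals in the other conditions after scaling. A ratio above 1 to that sum was found for 4 members, Cd40, Cd83, Cd274, and Pdcd1lg2, and for 5.75% of the 17710 genes well above background in Triple. For Pdcd1lg2 the ratio was only 1.13 by the dim probe that represents it, and 3.28 by its other probe. With another background correction (normexp) the count of members was 3.

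Cd83 encodes a surface protein of mature antigen-presenting cells that keeps CD86 and MHC class II at the surface. By its probe on NM_009856 (chr13:43898276-43898335, mm9), its signal was 2733 in CpG, 6750 in IFN-γ + blocker, and 20128 in Triple. It was 3.06-fold higher in Triple than in IFN-γ + blocker (log2 fold 1.61) and 7.66-fold higher than in CpG (2.94). Cd274, by a probe on NM_021893 (chr19:29462363-29462422, mm9), measured 9287, 27931, and 77642 in the same order. Its fold was 2.85 over IFN-γ + blocker (log2 1.51) and 8.70 over CpG (log2 3.12). The profiles of Cd83 and Cd274 were the closest pair among the members, with a distance of 0.20 between their centered log2 values, and Triple reached 2.19 and 2.15 times the sum of the other signals.

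**Figure D2:**
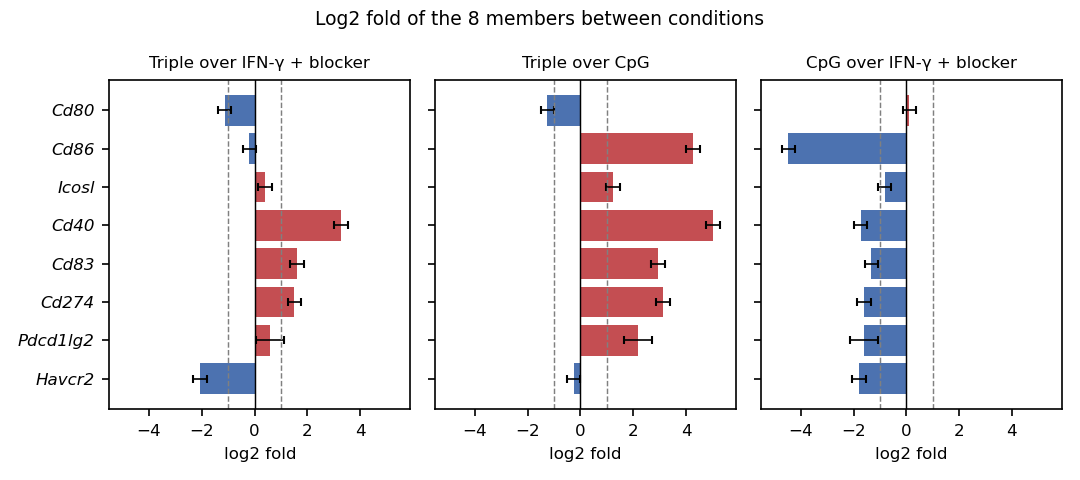
Log2 fold of each member between the conditions, 1 array each. Bars are the fold of the representing probe, and dashed lines the 2-fold limits. Whiskers are 2 technical SD between replicate spots, not between cultures (SD 0.13, over probes of all signals, and 0.26 for the dim Pdcd1lg2). Cd40 has the highest member fold in Triple over IFN-γ + blocker (3.29) and over CpG (5.03), and Cd86 the lowest in CpG over IFN-γ + blocker (−4.47).

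Cd86 followed a different order from Cd40. With its probe on NM_019388 (chr16:36603961-36604020, mm9), the signal was 401 in CpG, 8762 in IFN-γ + blocker, and 7462 in Triple. CpG alone stood apart, with a signal 22.2-fold lower than IFN-γ + blocker (log2 fold −4.47) and 19.4-fold lower than Triple (Triple over CpG 4.28). Of the genes compared, 0.269% had a lower fold of CpG over IFN-γ + blocker than Cd86. IFN-γ + blocker and Triple differed by a log2 fold of −0.20, which did not pass 2-fold. Without replicate cultures a difference of this size could not be judged. Icosl differed less between the conditions, with signals of 2911, 5087, and 6521 at a probe on NM_015790 (chr10:77542211-77542270, mm9). It was 2.33-fold higher in Triple than in CpG and 1.31-fold higher than in IFN-γ + blocker, and only the former passed 2-fold. A second Icosl probe, designed on the transcript AF394451 (chr10:77545941-77546001, mm9), was not well above background on any array, with signals of 6.14, 7.46, and 6.52.

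Havcr2 was the member with the largest decrease in Triple relative to IFN-γ + blocker. Its probe on NM_134250 (chr11:46294675-46294734, mm9) gave 698 in CpG, 2392 in IFN-γ + blocker, and 559 in Triple. IFN-γ + blocker was the high condition, 4.17-fold above Triple (Triple over IFN-γ + blocker −2.06) and 3.48-fold above CpG (CpG over IFN-γ + blocker −1.80). Triple and CpG differed by a log2 fold of −0.26, which did not pass 2-fold. Of the genes compared, 2.58% had a lower fold of Triple over IFN-γ + blocker than Havcr2, and Triple reached 0.186 of the sum of the other signals.

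**Figure D3:**
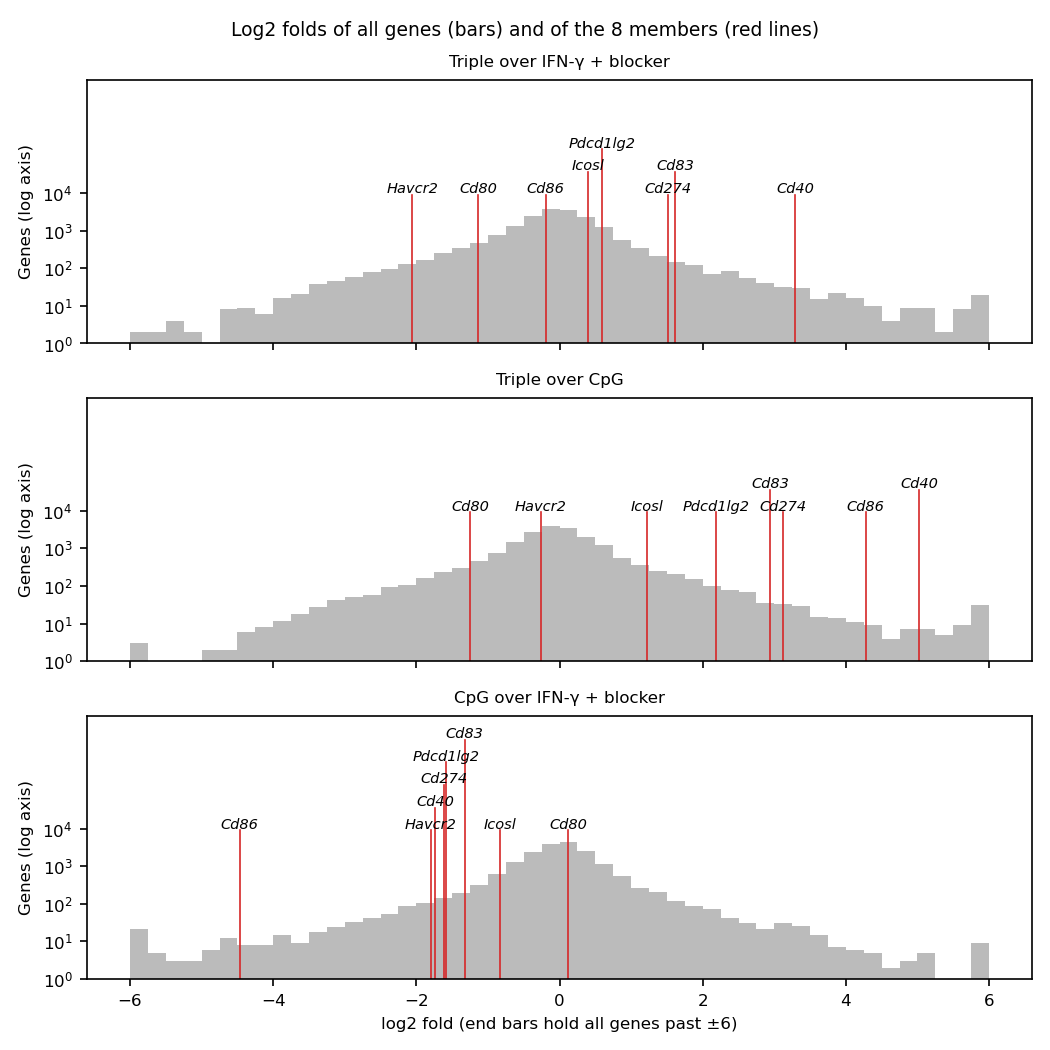
Number of genes (log axis) in each interval of log2 fold for the 3 comparisons, over the genes well above background on at least 1 of the arrays compared (18765, 19039, and 18981 from top to bottom), with the members as red lines. In the middle panel Cd83, Cd274, Cd86, and Cd40 lie between 2.94 and 5.03, and in the lower panel Cd86 lies apart from the other members at −4.47.

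Both probes of Cd80 were designed on NM_009855 and were detected on all arrays, but they did not give the same folds. The brighter probe (chr16:38486772-38486831, mm9) measured 1938 in CpG, 1762 in IFN-γ + blocker, and 783 in Triple. By this probe Cd80 was 2.20-fold lower in Triple than in IFN-γ + blocker and 2.38-fold lower than in CpG, and it was the only member lower than both, as were 2.77% of all genes. CpG and IFN-γ + blocker differed by a log2 fold of 0.12, which did not pass 2-fold. The dimmer probe (chr16:38479343-38479402, mm9) measured 100, 88.3, and 94.9, and its log2 folds lay between −0.03 and 0.16. The brighter probe lies in row 383 of the 384 rows of the array, and the software marked the local background around it as an outlier on all 3 arrays, although the subtracted background was the fitted surface at 100% of the spots. When spots with that mark were left out as well, Cd80 was represented by the dimmer probe and its log2 fold of Triple over IFN-γ + blocker turned to 0.13. Among 4300 genes with at least 2 such detected probes, the 2 brightest differed by more than 1 on the log2 scale in 4.44% for Triple over IFN-γ + blocker. The last 30 bases of each probe are shown to identify the separate stretches of the transcript that were measured.
Cd80 brighter probe, chr16:38486802-38486831: tgatatgtcatgtttggttggtgtctgtgg
Cd80 dimmer probe, chr16:38479373-38479402: tgtctcattaaatatggagatgctcacgtg

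The probes of Pdcd1lg2 overlapped almost entirely, yet differed in IFN-γ + blocker. The probe designed on AF142780 (chr19:29545470-29545529, mm9), which represents the gene, measured 56.4 in CpG, 167 in IFN-γ + blocker, and 246 in Triple. The probe designed on NM_021396 (chr19:29545473-29545532, mm9) measured 35.8, 34.7, and 224. Both were highest in Triple, but the fold over IFN-γ + blocker was 1.51 by the former and 6.62 by the latter. Over CpG the folds were 4.55 and 6.50. For CpG over IFN-γ + blocker the log2 folds were −1.59 and 0.03, so that only the former probe passed 2-fold. The probes are 60 bases long and share 57 positions, at which they differ by 2 substitutions, C53T and G58A, counted from 1 at the 5′ end of the AF142780 probe. The windows below hold both differences, in capitals.
Pdcd1lg2 AF142780 probe, chr19:29545500-29545529: tggaagcatttaagcaacacgtCaagtGcc
Pdcd1lg2 NM_021396 probe, chr19:29545500-29545529: tggaagcatttaagcaacacgtTaagtAcc
Among the probes that represent a member, that of Pdcd1lg2 had the lowest signal on each array, and the technical SD of a log2 fold at signals under 200 was 0.26. The NM_021396 probe was dimmer still. Its signals of 35.8 in CpG and 34.7 in IFN-γ + blocker lay near the lowest signals well above background there, 23.8 and 26.7. Both probes lie in the first 48 rows of the array, in rows 17 and 29. Among genes well above background in Triple whose probe lies there, 9.16% were higher in Triple than in IFN-γ + blocker, against 6.60% in the other rows. The part of position in these values was not tested.

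**Figure D4:**
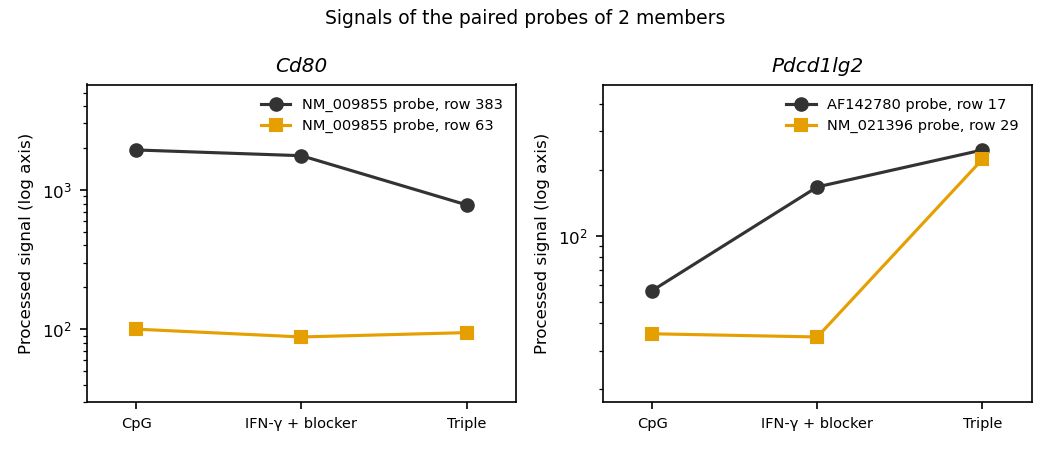
Processed signal (log axis) of both probes of Cd80 and of Pdcd1lg2 on the single array of each condition; lines join the values of a probe. The brighter Cd80 probe drops to 783 in Triple while the dimmer stays between 88.3 and 100, and the Pdcd1lg2 probes part at 167 and 34.7 in IFN-γ + blocker.

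Promoters of 5 members were found among the RefSeq promoters of GRCm38.p6 used here. Those of Cd86, Cd40, and Cd83 were not found there, so that nothing below applies to them. Those of Cd274 and Pdcd1lg2, which lie next to each other on chromosome 19 and were both higher in Triple than in CpG, and those of Cd80 and Havcr2, which were lower in Triple than in IFN-γ + blocker (Cd80 by its brighter probe), are shown as the 250 bases before the start site, on the + strand, with motif matches in capitals.
Cd274 promoter, chr19:29367188-29367437: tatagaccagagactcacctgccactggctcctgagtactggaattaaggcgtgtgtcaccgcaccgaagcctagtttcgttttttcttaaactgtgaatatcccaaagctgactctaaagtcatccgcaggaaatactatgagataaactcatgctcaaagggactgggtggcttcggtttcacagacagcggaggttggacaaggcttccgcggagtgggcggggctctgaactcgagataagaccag
Pdcd1lg2 promoter, chr19:29410669-29410918: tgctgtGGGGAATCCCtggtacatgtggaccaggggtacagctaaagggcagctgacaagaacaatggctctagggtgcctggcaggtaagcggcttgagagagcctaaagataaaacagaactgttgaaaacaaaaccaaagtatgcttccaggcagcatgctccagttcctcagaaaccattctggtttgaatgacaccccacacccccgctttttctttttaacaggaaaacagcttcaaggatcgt
Cd80 promoter, chr16:38458683-38458932: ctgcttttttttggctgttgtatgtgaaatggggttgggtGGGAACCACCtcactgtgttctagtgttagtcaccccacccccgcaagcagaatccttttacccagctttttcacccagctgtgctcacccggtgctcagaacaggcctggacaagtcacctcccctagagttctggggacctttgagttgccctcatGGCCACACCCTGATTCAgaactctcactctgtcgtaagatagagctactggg
Havcr2 promoter, chr11:46454681-46454930: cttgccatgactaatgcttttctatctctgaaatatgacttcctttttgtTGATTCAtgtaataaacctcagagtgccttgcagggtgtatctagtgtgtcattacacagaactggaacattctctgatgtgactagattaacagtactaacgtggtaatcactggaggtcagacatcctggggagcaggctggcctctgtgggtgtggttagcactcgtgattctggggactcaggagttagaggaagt
Both strands were searched. A κB-like motif (GGG and CC with 5 bases of any kind between them) was matched in Cd80, Pdcd1lg2, and Icosl, and is held by 45.8% of 32851 promoters of this length. The AP-1 motif TGANTCA was matched in Cd80 and Havcr2, and is held by 6.75% of all promoters. In Cd80 the AP-1 match directly follows a κB-like match, without overlap. A GAS motif, TTCNNNGAA (7.02% of promoters), an IRF-like motif, a pair of GAAA with 2 bases of any kind between them (2.98%), and TATAAA (12.4%) had no match in these 5 windows. These matches describe the letters of the windows and no binding was measured.

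The other genes of the costimulation pathways were taken from 8 lists with 70 genes, of which 69 were measured and 50 were well above background on at least 1 array. Of the 69 measured, 15 were higher and 7 lower in Triple than in IFN-γ + blocker, against 3.56% and 5.01% of all genes, detected or not. In Triple over CpG 19 were higher and 4 lower, against 4.12% and 4.58%, so that the lower calls, 4 of 69, were near the share over all genes. In CpG over IFN-γ + blocker 6 were higher and 12 lower, against 2.75% and 3.19%. Their median log2 folds were 0.22, 0.41, and −0.19. Among 14 measured B7-family and other ligands, 10 were detected, and 4 were higher in Triple than in IFN-γ + blocker (3.56% of all genes). Cd200, whose product restrains myeloid cells through its receptor, measured 314 in CpG, 45.8 in IFN-γ + blocker, and 2955 in Triple, a 66.2-fold difference between the latter arrays. Icam1, an adhesion ligand of LFA-1 on T cells, measured 1803, 1955, and 9420. Both were also higher in Triple than in CpG, 9.78-fold for Cd200 and 5.44-fold for Icam1. Pvr, a ligand of CD226 and TIGIT, was 3.36-fold higher in Triple than in IFN-γ + blocker, and Tnfrsf14, which binds BTLA and CD160, 2.88-fold. Vsig4, an inhibitory ligand, was the only lower gene, with 77.8, 64.3, and a signal not well above background in Triple, at least 2.38-fold lower than in IFN-γ + blocker. Cd276, Vtcn1, Btn2a2, and Btnl2 were not well above background.

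Of 8 TNF-family ligands measured, 6 were detected. In Triple over IFN-γ + blocker 1 was higher (3.56% of all genes), 3 were lower (5.01%), and Tnfsf9 and Tnfsf4 were not called. Tnfsf14 (LIGHT), a ligand of TNFRSF14, measured 378 in CpG and 1710 in IFN-γ + blocker and was not well above background in Triple, at least 63.3-fold lower than in IFN-γ + blocker. Tnfsf13b (BAFF), a survival factor of B cells, measured 116, 1639, and 176, and was 9.10-fold lower. Tnfsf8, the CD30 ligand, was at least 6.44-fold lower. Tnfsf15 was the ligand that was higher, with 97.5, 336, and 658, 2.01-fold higher in Triple than in IFN-γ + blocker and 7.03-fold higher than in CpG. In CpG, 4 of these ligands were lower than in IFN-γ + blocker (3.19% of all genes).

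All 10 genes of CD40 signalling were detected on all arrays, and 5 were higher in Triple than in IFN-γ + blocker (3.56% of all genes), with none lower (5.01%). Traf1, an adaptor of TNF receptors, measured 2759 in CpG, 1098 in IFN-γ + blocker, and 36634 in Triple, 34.2-fold above IFN-γ + blocker and 13.8-fold above CpG. Birc3, a ubiquitin ligase of the same complexes, was 7.02-fold higher in Triple than in IFN-γ + blocker. The non-canonical NF-κB subunits Nfkb2 and Relb were 5.11-fold and 4.07-fold higher. These 4 genes were also higher in CpG than in IFN-γ + blocker (2.75% of all genes), between 2.17-fold and 3.01-fold. Of the list, 1 gene, Traf5, was lower there (3.19%), by 2.78-fold, and Cd40 itself was 3.34-fold lower. Map3k14 and Traf6 differed by less than 2-fold in every comparison.

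Of 7 genes of IFN-γ signalling, 3 were lower in CpG than in IFN-γ + blocker (3.19% of all genes), and Triple was higher than IFN-γ + blocker for 1 (3.56%). Irf1, a transcription factor induced by IFN-γ, measured 9196 in CpG, 132675 in IFN-γ + blocker, and 123964 in Triple. As for Cd86, CpG was the low condition, and Triple and IFN-γ + blocker differed by a log2 fold of −0.06. Jak2, the kinase of the IFN-γ receptor, was 2.41-fold higher in Triple than in IFN-γ + blocker. Of 4 genes acting on the turnover of these proteins at the surface, none passed 2-fold. This is near the share over all genes, of which 2.75% to 5.01% were called in each direction of a comparison. Marchf1, which removes CD86 from the surface, came near the 2-fold limit. It measured 9323, 12547, and 17237, and was 1.92-fold higher in Triple than in CpG.

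**Figure D5:**
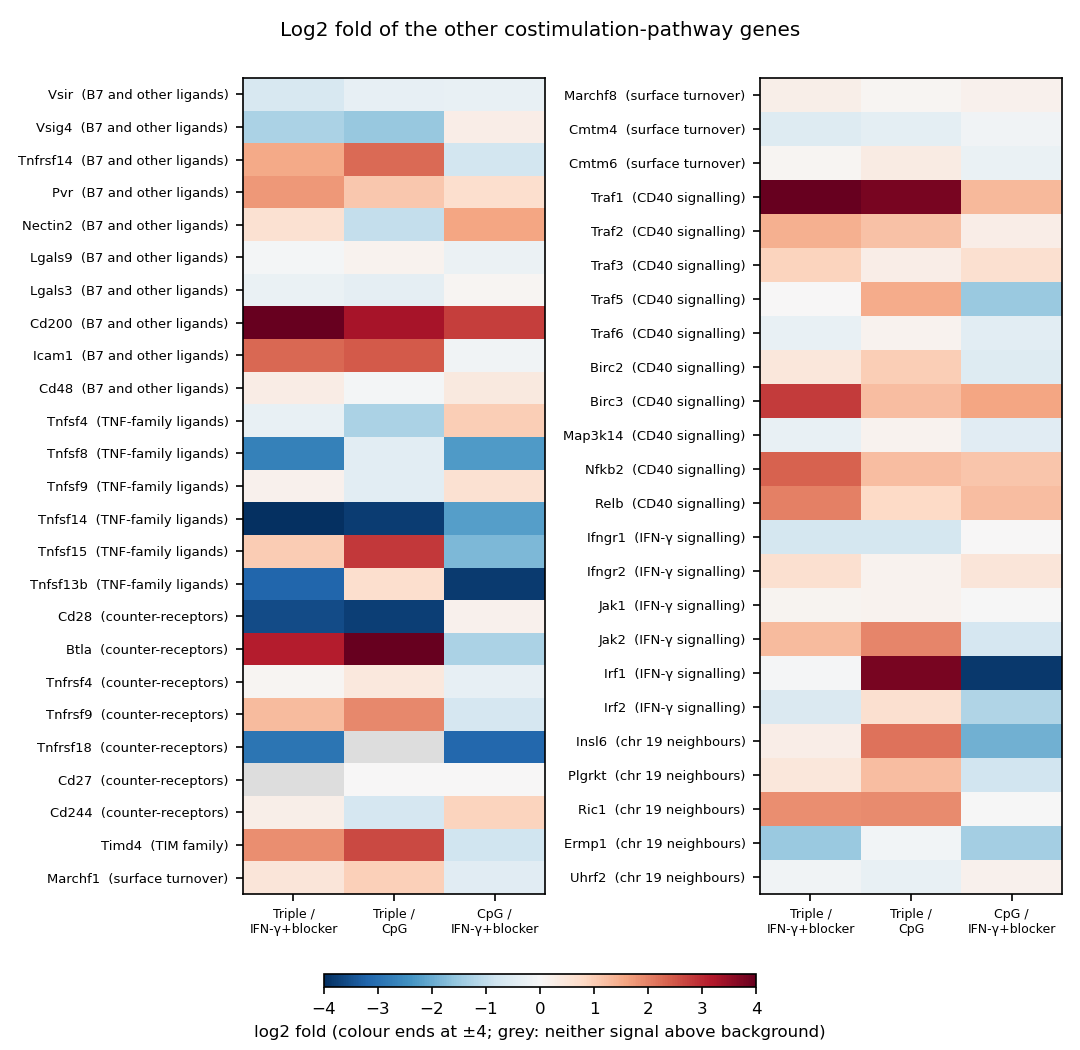
Log2 fold of the pathway genes that were well above background on at least 1 array, in the 3 comparisons of single arrays; red is higher in the first-named condition, blue lower, and grey marks pairs with neither signal well above background (1 gene of IFN-γ signalling is not shown). Cd200 and Traf1 are deep red in Triple over IFN-γ + blocker (6.05 and 5.10), and Tnfsf14, Cd28, and Tnfsf13b are blue.

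For each member the 3 most similar profiles were sought among 10354 genes with a symbol and with detection on all arrays, by the distance between log2 values centered on their mean over the 3 arrays. With 3 values per gene, a small distance describes these arrays only. The nearest to Cd40 was Mmp13, a collagenase, at a distance of 0.46, with 988 in CpG, 2111 in IFN-γ + blocker, and 27761 in Triple. The nearest to Cd86 was Fam3b at 0.11, followed by the IFN-inducible GTPase genes Tgtp2 (0.31) and Gbp3 (0.36). Cst7, an inhibitor of cysteine proteases, was nearest to Cd274 at 0.14, and Plbd1 was among the 3 nearest to both Cd274 and Cd83. The nearest to Havcr2 were Armcx6 (0.087), Mllt3 (0.12), and Kmo (0.12). The smallest distances were those of Rnf19b at 0.0072 from the AF142780 probe of Pdcd1lg2, Casp1 at 0.014 from Icosl, and Qser1 at 0.022 from the brighter Cd80 probe. The other probes of Pdcd1lg2 and Cd80, which gave other folds, were not compared in this way.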

How the data were processed

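RNA of BMDMs from 3 conditions was hybridized to 1 Agilent mouse array each (Cy3, 1 color). The authors deposited scanner output made with Agilent Feature Extraction 10.10.1.1, in which the processed signal is an intensity after subtraction of a fitted surface, and a table of log2 values. Each column of that table equalled the log2 signal less 1 value per array (100% of 55659 probes within 0.02), with column medians of −4.26, −4.38, and −4.27. Its scale and direction follow from this, and no centering of genes was seen.

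Control spots and feature outliers (0.212% to 0.275% of spots) were left out, and spots of a probe were averaged as log2 values. The 75th percentile was subtracted from each array. Because a mean of 44.2% of probes reached the software's mark for well above background, less than 50%, it was taken over the 22382 probes that reached it on every array. A probe reached it when more than 50% of its spots did, and no spot was saturated. The probe with the highest mean stood for a gene. Other signals were raised to the lowest signal with that mark on their array (23.8, 26.7, and 26.3 in CpG, IFN-γ + blocker, and Triple), which makes such folds bounds, and no fold is given where both signals lacked it.

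Members and lists were chosen with earlier results of these data known. The named genes were all members, pathway genes past 2-fold between any 2 arrays, those with the 3 largest folds of a list first, and for each member the 3 nearest profiles. Other list members are named with their values, and some genes that the rule would name are not reported here. The lists held B7-family and other ligands, TNF-family ligands, counter-receptors, TIM-family genes, surface turnover, CD40 and IFN-γ signalling, and neighbors on chromosome 19, besides markers of 7 cell types. Of 29150 probes with a RefSeq accession, 27509 matched RefSeq, used for current names and, in GRCm38.p6, for promoters.

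As alternatives, background was corrected by normexp with limma 3.58.1 in R 4.3.3 (offset 50), and arrays were scaled by quantile, median, the 75th percentile of all probes, spike-ins, Actb, or not at all. Further alternatives were the authors' table, other filters on dim probes, the mean of all probes, outlier spots kept, and limits of 1.5-fold and 3-fold. Leaving out spots with a local-background outlier mark (2.78% to 3.59%) and taking each member's probes singly were chosen after seeing the data. The code was tested on simulated data. Calculations used Python 3.11.15, numpy 2.4.6, and pandas 2.3.3.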

Additional observations from a re-analysis of the deposited data

How the results depend on the processing

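No paired analysis was possible because every condition was measured on 1 array. Of the 24 log2 folds of the members, 18 passed 2-fold, and 14 of these passed it in the same direction under all 12 alternatives. The exceptions were Cd80 in Triple over IFN-γ + blocker and over CpG, Pdcd1lg2 in CpG over IFN-γ + blocker (−0.91 with normexp correction and −0.78 with the mean of both probes), and Icosl in Triple over CpG (0.71 with the mean of its probes). Cd80 turned from −1.13 to 0.13 over IFN-γ + blocker, and moved from −1.25 to −0.03 over CpG, when spots with a local-background outlier mark were left out, because the brighter probe was then absent. The number of members lower in Triple than in IFN-γ + blocker went from 2 to 1, lower than in CpG from 1 to 0, and lower than in both from 1 to 0, each under the mean of all probes, the 3-fold threshold, and without spots with a local-background outlier mark. Pathway genes lower in Triple than in CpG numbered 4, and 2 with normexp, 1 with both arrays well above background, 7 at 1.5-fold, 2 at 3-fold, and 2 without the marked spots. Those lower in Triple than in IFN-γ + blocker numbered 7, and 3 with both arrays well above background. Those higher in CpG than in IFN-γ + blocker numbered 6, and 11 at 1.5-fold and 2 at 3-fold. The other 190 counts of members and pathway genes stayed within 1.5 times. Among all genes, 1238 were higher in Triple than in IFN-γ + blocker and 833 to 2625 over the alternatives at 2-fold, and 1435 were higher than in CpG, with 984 to 2869. Genes lower in Triple numbered 1745 against IFN-γ + blocker, with 1150 to 3183, and 1593 against CpG, with 969 to 3129. The low end came from normexp and the high end from no filter. For Triple over IFN-γ + blocker, spike-in scaling moved the median of all genes from −0.04 to −0.18. The number of arrays, and dim signals for Pdcd1lg2, limit these values.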

Other observations

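The receptors that bind these ligands are best known from T cells, and 7 of 16 measured counter-receptors were well above background on at least 1 array, while Ctla4, Icos, Cd40lg, Pdcd1, Lag3, and Tigit were not on any. Cd28, the receptor of CD80 and CD86, measured 2223 in CpG, 1927 in IFN-γ + blocker, and 156 in Triple, which was 13.7-fold lower in Triple than in CpG and 12.1-fold lower than in IFN-γ + blocker. The T cell marker Cd3e measured 858, 869, and 806, and the summed signal of the 5 measured T cell markers was 978, 1056, and 974. Most of that sum was Cd3e itself. Lck measured 94.4, 169, and 150, and Cd3d, Cd3g, and Cd8a were not well above background on any array. Btla, an inhibitory receptor bound by TNFRSF14, was not well above background in CpG and measured 55.9 in IFN-γ + blocker and 478 in Triple, an 8.77-fold difference between the latter. Tnfrsf9 (4-1BB), a costimulatory receptor, measured 7846, 12333, and 28760. Tnfrsf18 (GITR) was well above background only in IFN-γ + blocker, at 205, and was at least 7.59-fold lower in Triple. In the TIM family, Timd4, a receptor for phosphatidylserine, measured 40.3 in IFN-γ + blocker and 142 in Triple and was not well above background in CpG. Havcr1 and Timd2 were measured but were not well above background on any array.

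Cd274 and Pdcd1lg2 lie among other genes on chromosome 19, of which 6 of 8 were well above background. Insl6, a relaxin-family gene next to Jak2, measured 1871 in CpG, 6929 in IFN-γ + blocker, and 8076 in Triple, with CpG 3.76-fold lower than IFN-γ + blocker. Plgrkt, a plasminogen receptor gene, was 2.34-fold higher in Triple than in CpG, and its profile was among the 3 nearest to that of Icosl (distance 0.045). Ric1 measured 1267, 1260, and 4466, and was 3.64-fold higher in Triple than in IFN-γ + blocker. Ermp1 measured 810, 2058, and 716, with Triple 2.80-fold lower than IFN-γ + blocker. Uhrf2 passed 2-fold in no comparison. Jak2 measured 3150, 4952, and 11633. Of the 8 neighbors 4, Jak2, Insl6, Plgrkt, and Ric1, were higher in Triple than in CpG and none was lower, against 4.12% and 4.58% of all genes. Jak2, Insl6, and Plgrkt had the same order of conditions as Cd274, with CpG the lowest and Triple the highest, while Ermp1 and Uhrf2 did not. For Ric1, Triple was the highest, and CpG and IFN-γ + blocker were almost equal (log2 fold −0.01 after scaling).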
